A study of Mus musculus with 3 samples.

Results

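The regions described here are the open chromatin peaks that were called in oligodendrocyte lineage cells lacking Seh1 and in neither control library. They were selected on the measurements: a member is an autosomal peak of the Seh1cKO day 1 list with a summit pileup of at least 0.8 FPM (fragments per 1000000 fragments of the library), overlapped by 1 bp or more by no peak of either control library. There were 1852 such peaks. They are 5.2% of the 35635 autosomal Seh1cKO peaks at that minimum, and the 3 lists held 273342 peaks in all. Since absence from the control lists defined them, that absence is a description and not a finding.

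The 3 libraries, 1 per group, came from mouse oligodendrocyte progenitor cells of C57BL/6 pups aged postnatal day 4 to 7, purified from the cortex by immunopanning, with plates coated first with antibody to GalC and next to O4, and grown in culture. Control_D0 cells were wild type and kept as progenitors (the label ends in the letters DO, read as day 0). Control_D1 cells were wild type and Seh1cKO_D1 cells carried the conditional Seh1 knockout, both after 1 day in medium with 60 nM triiodothyronine (T3), the thyroid hormone that starts differentiation, and without the growth factors PDGF-AA, bFGF and NT3. The Cre line, the deleted part of Seh1 and the number of animals behind each library are not given in the sources used here. Each library was made from 50000 cells by ATAC-seq, in which a transposase cuts and tags accessible DNA. The progenitor library held 23403600 fragments, the control day 1 library 18260883 and the Seh1cKO library 10845533. With 1 library per group there was no test between conditions, and genotype cannot be told apart from library. Intervals are exact 95% Clopper-Pearson intervals, or order-statistic intervals for medians, and cover counting error only. The fragments carry no molecular identifiers and their ends are not in the peak lists, so copies of one molecule cannot be recognised here.

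Seh1 is a subunit of the nuclear pore scaffold and also of GATOR2, a complex that relays amino acid levels to the growth kinase complex mTORC1. The series title ties it to Olig2, which drives oligodendrocyte fate, and to Brd7, a subunit of a chromatin remodeller. In ATAC-seq a promoter or enhancer gives many fragments with different ends, so a strong site is usually also a broad one. Repeated copies of a single fragment would pile up in a region no wider than that fragment. Reads from recently duplicated sequence, such as the clusters of zinc finger genes in the mouse genome, match several places equally well.

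The densest group of members lay at such a cluster. On chromosome 2, between 175000001 and 177000000 (mm10), 17 members fell among 25 Seh1cKO peaks at the minimum. The progenitor list had 6 peaks at the minimum there and the control day 1 list 7, and none of these was found in its library alone. The stretch was chosen after the values were seen. It joins 2 neighbouring windows of 1000000 bp that had 9 and 8 members, the highest and, with 1 other, the second highest count. Of the windows with a member 699 held 1. The promoter windows of 4 of its genes are shown to make the likeness visible, taken from RefSeq (GRCm38.p6), 250 bases before to 50 after an annotated start, 5′ to 3′ on the gene's strand. The capitals mark the longest run that is identical in the 4 sequences, 89 bases.
2210418O10Rik (+ strand, chr2:176226315-176226614): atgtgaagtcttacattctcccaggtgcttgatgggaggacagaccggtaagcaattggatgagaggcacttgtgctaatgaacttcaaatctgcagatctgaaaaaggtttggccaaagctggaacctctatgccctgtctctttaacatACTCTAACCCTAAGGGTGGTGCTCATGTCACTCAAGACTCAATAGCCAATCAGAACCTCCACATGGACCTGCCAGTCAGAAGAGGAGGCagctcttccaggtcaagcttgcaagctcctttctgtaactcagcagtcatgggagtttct
Zfp965 (+ strand, chr2:175469775-175470074): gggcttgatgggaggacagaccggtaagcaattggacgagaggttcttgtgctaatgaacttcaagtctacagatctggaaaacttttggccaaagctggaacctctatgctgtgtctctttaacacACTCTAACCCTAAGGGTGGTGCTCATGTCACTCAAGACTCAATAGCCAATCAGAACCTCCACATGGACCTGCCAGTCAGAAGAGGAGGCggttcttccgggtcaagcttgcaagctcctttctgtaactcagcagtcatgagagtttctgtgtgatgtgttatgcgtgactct
Zfp967 (+ strand, chr2:176520754-176521053): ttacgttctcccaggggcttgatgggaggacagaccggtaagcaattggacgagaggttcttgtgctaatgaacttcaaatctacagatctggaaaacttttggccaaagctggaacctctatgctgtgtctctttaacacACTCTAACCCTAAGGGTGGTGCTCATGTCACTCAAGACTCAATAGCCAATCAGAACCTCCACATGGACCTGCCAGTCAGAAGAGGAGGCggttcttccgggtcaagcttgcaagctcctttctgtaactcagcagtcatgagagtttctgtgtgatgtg
Gm14308 (- strand, chr2:176636270-176636569): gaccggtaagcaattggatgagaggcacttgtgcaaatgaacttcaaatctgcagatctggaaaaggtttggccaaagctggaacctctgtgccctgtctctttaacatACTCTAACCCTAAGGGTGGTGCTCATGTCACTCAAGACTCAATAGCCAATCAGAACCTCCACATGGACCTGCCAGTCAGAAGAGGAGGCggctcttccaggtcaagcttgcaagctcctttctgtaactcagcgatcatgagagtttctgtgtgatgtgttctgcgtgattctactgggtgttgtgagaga

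The 3 windows that follow belong to members outside the stretch and are shown for contrast. They have no 31-base run in common with a promoter window on another chromosome or at some distance on the same one. Capitals mark the bases covered by the member.
Castor1 (+ strand, chr11:4217975-4218274): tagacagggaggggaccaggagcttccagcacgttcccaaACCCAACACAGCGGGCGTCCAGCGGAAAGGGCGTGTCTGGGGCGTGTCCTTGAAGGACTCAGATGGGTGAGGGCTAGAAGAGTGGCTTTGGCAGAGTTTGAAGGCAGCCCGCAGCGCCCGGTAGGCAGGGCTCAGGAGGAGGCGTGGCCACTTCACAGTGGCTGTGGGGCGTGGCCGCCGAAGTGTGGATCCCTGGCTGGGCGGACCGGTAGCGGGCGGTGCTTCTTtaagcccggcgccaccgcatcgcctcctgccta
Per1 (+ strand, chr11:69099902-69100201): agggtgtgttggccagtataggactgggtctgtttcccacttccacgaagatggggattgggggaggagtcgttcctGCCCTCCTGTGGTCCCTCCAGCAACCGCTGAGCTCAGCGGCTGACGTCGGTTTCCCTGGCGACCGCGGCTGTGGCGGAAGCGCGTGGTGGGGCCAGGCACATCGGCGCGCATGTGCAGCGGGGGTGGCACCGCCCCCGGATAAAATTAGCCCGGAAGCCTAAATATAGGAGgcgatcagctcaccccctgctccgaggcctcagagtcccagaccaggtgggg
Atxn7l1 (+ strand, chr12:33314047-33314346): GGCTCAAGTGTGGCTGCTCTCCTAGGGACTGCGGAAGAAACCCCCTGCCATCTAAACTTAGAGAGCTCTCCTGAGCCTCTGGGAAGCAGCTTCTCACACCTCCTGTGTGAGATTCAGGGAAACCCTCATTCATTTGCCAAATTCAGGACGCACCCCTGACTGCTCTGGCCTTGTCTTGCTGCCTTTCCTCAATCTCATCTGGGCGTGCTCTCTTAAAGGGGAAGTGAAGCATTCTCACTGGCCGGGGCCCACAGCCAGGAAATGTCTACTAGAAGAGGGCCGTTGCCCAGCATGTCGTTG

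The strongest of the cluster by −log10 q illustrate the values. The member at 2210418O10Rik (chr2:176226253-176226864) was 612 bp wide with 18 fragments at its summit, 1.66 FPM, and a −log10 q of 13.0. The nearest control peak was 196651 bp away. At Zfp967 (chr2:176520714-176521052) the member was 339 bp wide with 17 fragments, 96624 bp from a control peak. At Gm14296 (chr2:176927733-176928123) it was 391 bp wide with 16 fragments. Members with 14 fragments each lay at Zfp968, Zfp965, Gm14434 and Gm14308 and within Gm4724, an annotated gene spanning 5 members.

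Members of the cluster differed in shape from members elsewhere. Their median width was 361 bp (107 to 675) against 189 bp elsewhere, and 13 of 17, against 227 of 1835 elsewhere, overlapped a gene-end window, 1000 bp either side of an annotated first or last base of a protein-coding gene. All 17 lay at the lowest background of the library, 1.22 fragments, as did 966 of the 1835 elsewhere. The median distance to the nearest control peak was 96624 bp (9 to 222077), against 1753 bp for members elsewhere. Members at least 400 bp wide and over 10000 bp from a control peak numbered 26 in all, and 7 of them were here.

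The spacing of members repeated. Of the 17 members 12 lay between 33586 and 33861 bp from the nearest other Seh1cKO peak, while 26 of the 1835 members elsewhere had such a gap between 33000 and 35000 bp. A gap between neighbouring members was counted for each of them, so the separate gaps in the stretch were fewer than 12. The promoter windows met by members here, 13 genes, shared a median of 83.4% of bases pairwise (64.0 to 100), against 50.9% among 89 genes with a member at the promoter elsewhere. The windows of Gm4724, Gm2026, Gm14434 and Gm14308 had 100% identity, and those of Zfp966 and Zfp967 as well. Fragments from identical windows cannot be assigned to one copy, and the sources used here do not say how such reads were placed, so the pileup at each single gene is uncertain.

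Counted over genes, a Seh1cKO peak met the promoter window of 19 of the 24 genes with a window in the stretch, a progenitor peak 5 and a control day 1 peak 4. Of these 19 genes 13 were met by members, which the rule chose for overlapping no control peak. Most of this contrast was therefore set in advance. Of the 24 genes 21, with all 19 among them, had a window with at least 50% of its 31-base runs in a promoter window elsewhere. Elsewhere means on another chromosome or at some distance on the same one, and a second start of the same gene could count. At Zfp966 the progenitor library had a peak with 10 fragments (0.427 FPM) beside the member's 9 (0.83), and it began 9 bp from the member. Seh1cKO peaks of the stretch at the minimum that overlapped a control peak were also higher than that peak. The minimum was set on the Seh1cKO peaks alone. Below it, a Seh1cKO peak with 0.645 FPM overlapped a control day 1 peak with 0.657. Over the 8 shared Seh1cKO peaks of the stretch at the minimum that overlapped a control day 1 peak, the median ratio of pileup in FPM was 1.88 (1.39 to 3.59). Over all 32084 such shared peaks it was 0.918 (quartiles 0.686 and 1.19). For progenitors the ratio was 2.5 (1.32 to 3.45) over 6 peaks against 1.22 over 31474. The highest ratios to control day 1, 3.59, were at Gm14393 and Gm14440. The latter peak had 2.95 FPM in Seh1cKO cells, 0.855 in progenitors and 0.821 in control cells at day 1. Duplicated sequence moves with this group of members, and its part in the result was not tested.

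**Figure D1:**
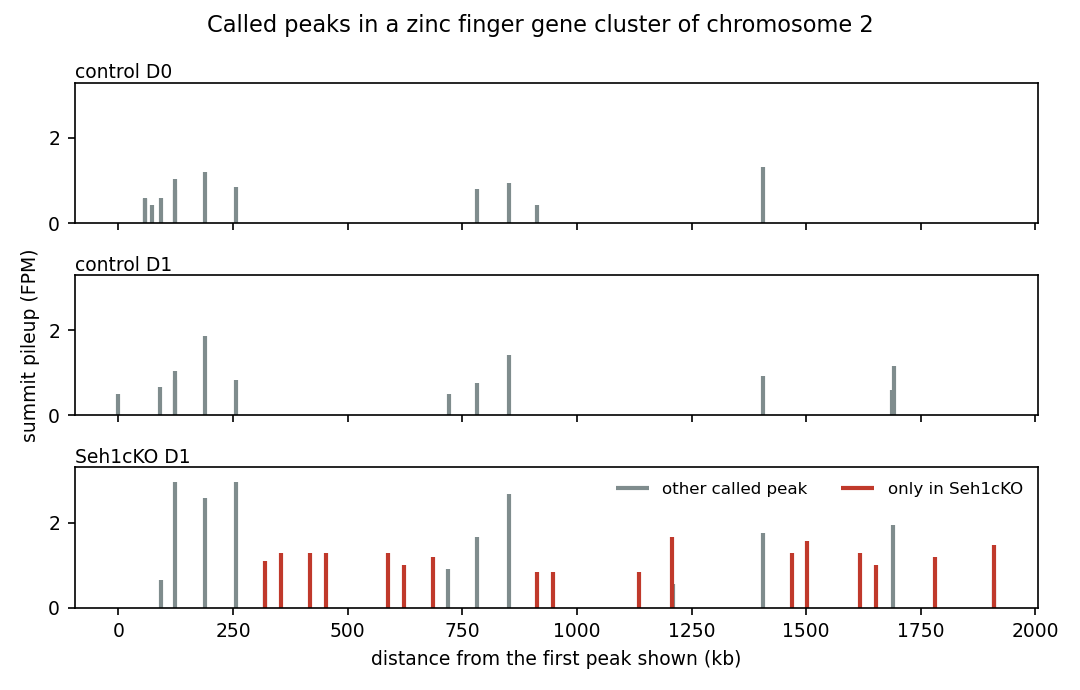
Called peaks in the chromosome 2 zinc finger stretch, as summit pileup in FPM (vertical) against distance from the first peak shown in kb (horizontal), 1 panel per library. Red bars are the 17 members, grey bars other called peaks. The control panels hold 12 peaks each and the Seh1cKO panel 29.

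Most members at duplicated promoters were in this stretch. A promoter window was met by 99 members, and 16 of these (16.2%, interval 9.53 to 24.9) met one with at least 50% duplicated runs, against 1.02% of 9231 Seh1cKO peaks at promoters shared with a control library. By the same rule turned round, the share was 1.74% of 115 peaks found only in progenitors and 1.37% of 219 found only in control cells at day 1. Without the stretch it was 3 of 86 members (3.49%, 0.725 to 9.86). Over all 32851 windows 4.38% were duplicated to that extent. Several other windows with many members also held many peaks found only in a control library. The window of 1000000 bp from 147000001 on chromosome 4 held 7 members, and 14 peaks found only in progenitors and 12 found only in control cells at day 1. The corresponding counts were 7, 50 and 37 from 20000001 on chromosome 8 and 6, 29 and 20 from 15000001 on chromosome 5. From 123000001 on chromosome 8 they were 8, 2 and 5, but there the 8 members were among 52 Seh1cKO peaks, against 17 among 25 in the zinc finger stretch.

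Across the genome the members were few, and weaker than shared peaks. The same rule gave 2405 peaks found only in progenitors, 6.98% of 34445, and 10335 found only in control cells at day 1, 20.7% of 50032. A member has at least 9 fragments (0.83 FPM), which corresponds to 19.4 fragments in the progenitor library and 15.2 in the control day 1 library, and the lowest pileups called there were 9 and 8. In FPM these were 0.385 and 0.438, against 0.553 in the Seh1cKO library. The lists held 108788, 118441 and 46113 peaks in that order. A Seh1cKO peak had to miss both control lists, but a control peak only the other control list and the shorter Seh1cKO list. The shares are therefore not like for like. The median pileup of members was 10 fragments, and 32 of them (1.73%) had a −log10 q of at least 10, against 45.0% of shared Seh1cKO peaks. In FPM the median was 0.922, near that of peaks found only in progenitors (0.897) or only in control cells at day 1 (0.986). The highest pileup was 174 fragments. Over single chromosomes the share of Seh1cKO peaks that were members ran from 3.84% (chromosome 15) to 6.37% (chromosome 13), so no chromosome held most of them. At the threshold, 794 members had 9 fragments and a median width of 179 bp, and 1196 peaks missed the minimum at 8 fragments, with a median width of 160 bp. Examples inside are the peaks near Rp1 (182 bp), within Vxn (112 bp) and 120660 bp from Prex2 (124 bp), and outside those nearest A830018L16Rik (207 bp), Tram1 (293 bp) and Il17a (148 bp), each just short at 0.738 FPM.

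The members were narrow. Their median width was 189 bp (185 to 195) against 396 bp (393 to 399) for shared Seh1cKO peaks, and 54.9% (52.6 to 57.2) were under 200 bp, against 15.9%. Among the 340 members with a −log10 q of at least 5 the share was 30.3% and the median 258 bp. Members narrower than the mean fragment, 209 bp per the file header, made up 59.2%. Peaks found only in a control library had medians of 238 bp in progenitors and 255 bp in control cells at day 1, with 35.8% and 31.3% of them under 200 bp. Smaller width was not particular to members, however: shared peaks had a median of 396 bp in the Seh1cKO list, 525 bp in progenitors and 494 bp in control cells at day 1. At 0.8 to 1 FPM the medians of shared peaks were 212, 328 and 286 bp, and those of peaks found in 1 library were 184, 233 and 230 bp. Among Seh1cKO peaks of like pileup, at 9 fragments the median was 179 bp in members and 201 bp in shared peaks. The gap was wider at greater height. At 12 fragments members had 195.5 bp and shared peaks 277 bp, at 15 to 19 fragments 202.5 and 382 bp, and at 20 to 29 fragments 167.5 (117 to 317, 18 members) and 495 bp. Background and fold, each of which gives the other at a set pileup, moved with it. At 15 to 19 fragments members stood on a median background of 3 fragments with a fold of 4.19, and shared peaks on 1.66 with a fold of 6.69. At 20 to 29 fragments the backgrounds were 5.65 and 2.06 and the folds 3.63 and 8.1. The part of background in the width was not tested. The rule also favours narrow peaks at any pileup, since a wider peak is more likely to touch a control peak. Members with a control peak within 500 bp had a median width of 173 bp, and the others 196 bp. When a control peak had to cover a larger part of a peak to count as overlap, the median was 219 bp. How much of the difference from shared peaks comes from the rule was not tested. Under the main rule the medians of members stayed between 167.5 and 209 bp, near the mean fragment length, in every class of pileup. Peaks found only in control cells at day 1 did widen, from 230 bp at 0.8 to 1 FPM to 418 bp at 2 or more. In peaks found only in progenitors the medians were 233 bp and, over 21 peaks, 151 bp.

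**Figure D2:**
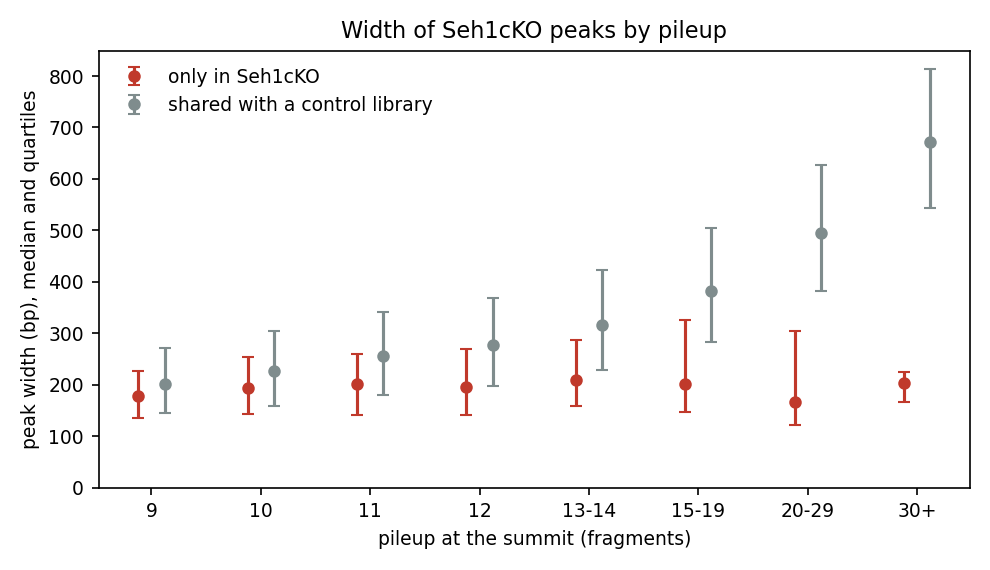
Width in bp (vertical, median with quartiles) of Seh1cKO peaks in classes of summit pileup in fragments (horizontal), for members (red) and peaks shared with a control library (grey). The medians of members lie between 167.5 and 209 bp in every class, and those of shared peaks rise from 201 to 671 bp.

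The summit lay within 10% of the width from the centre in 35.2% (33.0 to 37.4) of members and 40.2% (39.7 to 40.7) of shared peaks, but the share in shared peaks rose with height, to 50.1% at 30 fragments or more. At like pileup the order changed between classes. Members had 30.1% and shared peaks 31.5% at 9 fragments, 44.6% (35.9 to 53.6) and 37.0% (34.9 to 39.1) at 12, 42.5% (34.3 to 50.9) and 34.8% (33.2 to 36.4) at 13 to 14, and 35.9% and 38.7% at 15 to 19. Fragment ends are not in the peak tables, so duplicate fragments could not be counted. The extremes of width show the range of shapes. The narrowest members by rule, at the caller's minimum of 100 bp, lay within Cwc27 (17 fragments, summit at the centre to within 0.5% of the width), within Ccnd2 (20 fragments) and, with 10 fragments each, 5183 bp from Cntln and 239439 bp from Podxl, the nearest gene. Of shared peaks within 20% of its pileup, 0.0364% were as narrow as the Cwc27 member. The widest were 688 and 651 bp, both over 100000 bp from the nearest genes, Gm46911 and Csl, and 675 and 629 bp at Gm14308 and Zfp965 in the zinc finger stretch.

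The 26 members with at least 20 fragments were divided at a fold of 5, after their values were seen. Background was computed from pileup and fold, so the split itself largely set the background on each side. The distance to a control peak did not enter it. In the 11 above it the background was 1.22 to 2.26 fragments and the nearest control peak was 1754 to 25088 bp away. In the other 15 the background was 4.14 to 117 fragments and that distance 31 to 1539 bp. The strongest member of all, 15158 bp from Pthlh, which encodes parathyroid hormone-like hormone, was of the first kind (chr6:147236735-147236951). It had 64 fragments in 217 bp, a fold enrichment of 19.9 over a background of 2.26 fragments, a −log10 q of 64.4 and its summit at the exact centre. The nearest control peak was 25088 bp away. Shared peaks within 20% of its pileup had a median width of 734.5 bp, and 0.294% of 2042 were as narrow. Next came a peak of 263 bp within Cpeb4 (chr11:31922589-31922851), the gene of an RNA-binding protein of polyadenylation, with 37 fragments and a fold of 15.5. A peak of 156 bp within Pcca (chr14:122568960-122569115), a subunit gene of propionyl-CoA carboxylase, had 31 fragments and a fold of 14.4. Peaks of 243 bp at 25469 bp from Igsf11 (chr16:39052628-39052870), an adhesion molecule gene, and of 237 bp at 33692 bp from Map2k6 (chr11:110559214-110559450), a kinase gene of the p38 pathway, had 36 and 28 fragments. Of shared peaks of like pileup 1.9%, 0.409%, 1.61% and 3.19% were as narrow as these 4 in turn. A few strong members did have an ordinary width. Those within Eml6 (461 bp, 21 fragments), 18273 bp from Ccdc113 (467 bp, 20 fragments) and 135728 bp from Nalcn (486 bp, 18 fragments) were at least as wide as the median shared peak of their height, 445, 426 and 396 bp. The remaining ones of the 12 highest by −log10 q were 36178 bp from Gsap (317 bp), within Mbnl1 (232 bp) and 47010 bp from Sgo2b (111 bp).

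Members of the second kind had, by the split, a low fold and with it a high background. The member with the most fragments, 174 (chr9:3008542-3008644, 103 bp), had a background of 117 fragments, a fold of 1.49 and a control peak 686 bp away. At Zbtb20, a transcriptional repressor gene, the member had 34 fragments over a background of 15.2 with a fold of 2.16, 285 bp from a control peak. At Id2, an inhibitor of basic helix-loop-helix factors, it had 22 fragments with a fold of 2.67, 31 bp from a control peak. Mex3b, an RNA-binding protein gene, had 27 fragments, a fold of 2.3 and a control peak at 252 bp, and Grik5, a glutamate receptor subunit gene, had 27 fragments, a fold of 2.78 and one at 32 bp. At Per1, a clock gene, the member covered 171 bases of a promoter window (shown above), with 31 fragments, a fold of 3.92 and a control peak 982 bp away. Each of these members lay within 1000 bp of a site called in a control library.

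**Figure D3:**
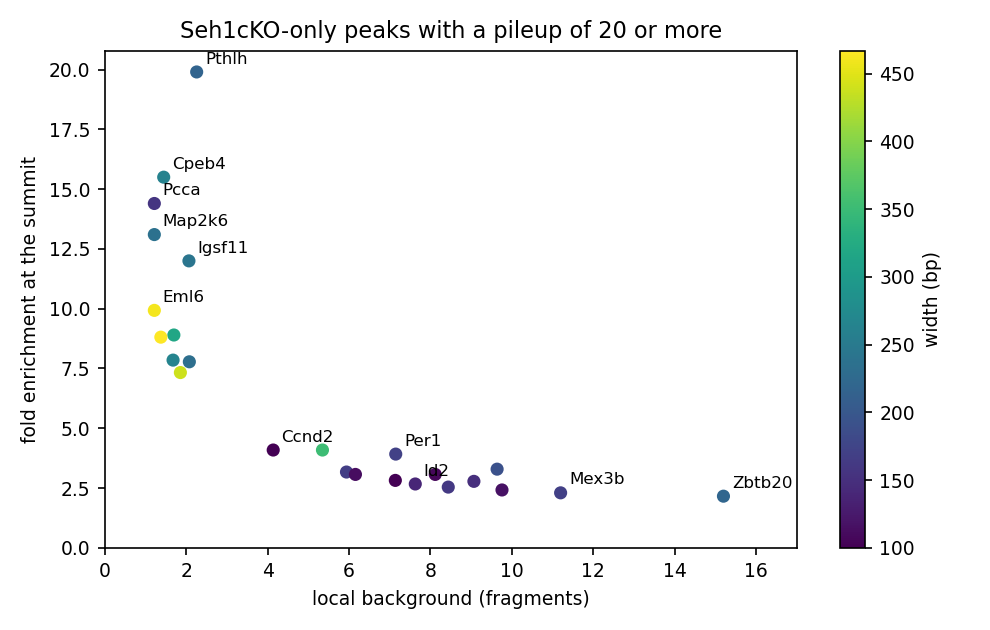
Fold enrichment at the summit (vertical) against local background in fragments (horizontal) for members with at least 20 fragments, coloured by width in bp. The member on chromosome 9 with a background of 117 fragments and a fold of 1.49 lies outside the axis and was left out. Members labelled by their nearest genes Pthlh, Cpeb4, Pcca, Igsf11 and Map2k6 stand at the upper left, and those at Zbtb20 and Mex3b at the lower right. Background was computed from pileup and fold, so the axes are not independent.

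Many members lay close to a peak of at least 1 control library. A control peak lay within 100 bp of 302 members (16.3%), within 500 bp of 635 (34.3%, 32.1 to 36.5) and within 1000 bp of 770 (41.6%), while 257 (13.9%) were over 10000 bp away. Peaks found only in progenitors had another library's peak within 500 bp in 34.1%, and those found only in control cells at day 1 in 19.5%. The 635 members near a control peak had a median width of 173 bp, 25.5% overlapped a gene-end window, and 38.7% had another Seh1cKO peak within 500 bp. The other 1217 had a median width of 196 bp, with 6.41% at gene ends and 2.71% with another Seh1cKO peak within 500 bp. Whether these members are parts of the neighbouring control site was not tested.

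**Figure D4:**
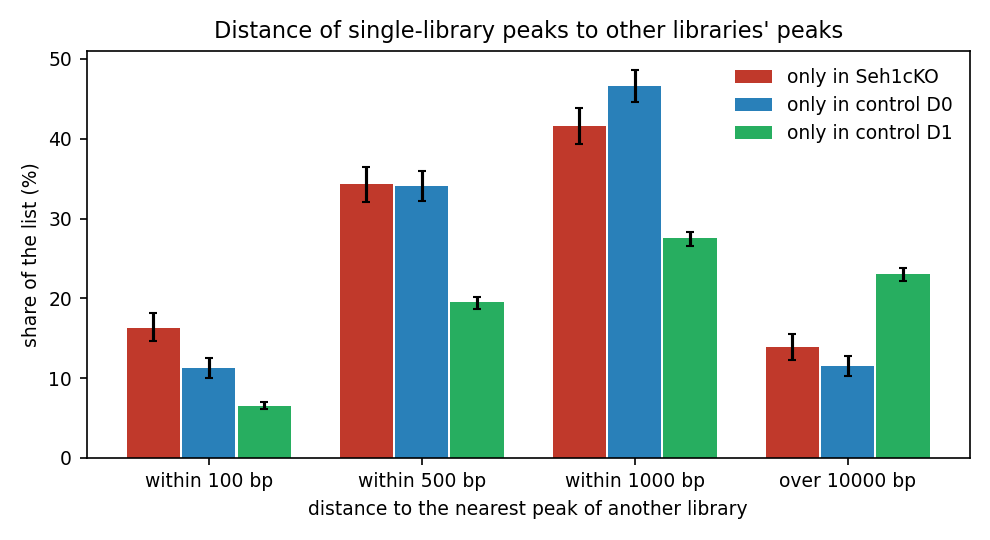
Share in % (vertical, with exact 95% intervals) of peaks found in 1 library that lie within 100, 500 or 1000 bp of, or over 10000 bp from, the nearest peak of another library (horizontal). Members (red) have 16.3% within 100 bp, peaks found only in progenitors (blue) 11.2% and only in control cells at day 1 (green) 6.53%.

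Few members lay at gene ends. A gene-end window was overlapped by 13.0% (11.5 to 14.6) of members and 34.2% of shared Seh1cKO peaks, 41.2% lay inside a gene, and 15.4% were beyond 100000 bp from any protein-coding gene, against 8.95% of shared peaks. The difference at gene ends was smaller among peaks of like pileup. The shares were 10.2% (8.65 to 11.8) and 13.6% (12.9 to 14.4) at 9 to 11 fragments, 15.4% and 17.4% at 12, 25.3% (18.5 to 33.2) and 20.2% at 13 to 14, and 31.5% (22.2 to 42.0) and 27.1% at 15 to 19. At 20 to 29 fragments they were 22.2% (6.41 to 47.6) of 18 members and 40.5% of shared peaks. At 12 fragments or more together the shares were 23.4% and 40.9%, but that class is not of like pileup. Of its 25424 shared peaks 8251 had 30 fragments or more, against 8 of its 394 members. The share of members at gene ends moved with the rule, to 29.0% with a minimum of 1.2 FPM and 6.41% when a control peak within 500 bp counted as overlap. The promoter windows met by members had a median GC content of 56.3%, against 62.7% for shared peaks and 52.7% over all windows. The GC box GGGCGG, searched on both strands, was in 41.2% of 114 windows met by members, 68.5% of windows met by shared peaks, 59.1% of those met by shared peaks of 9 to 19 fragments and 35.7% of all windows. None of the 17 windows in the chromosome 2 stretch held it. Outside the stretch it was in 48.5% (38.2 to 58.8) of 97 windows, and the median GC content there was 58.7%, against 60.7% for shared peaks of 9 to 19 fragments. The CCAAT box, letters CCAAT, was in 48.2% of windows met by members and in 39.2% (29.4 to 49.6) of those outside the chromosome 2 stretch, against 39.2% for shared peaks and 29.4% (27.8 to 31.2) for shared peaks of 9 to 19 fragments.

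**Figure D5:**
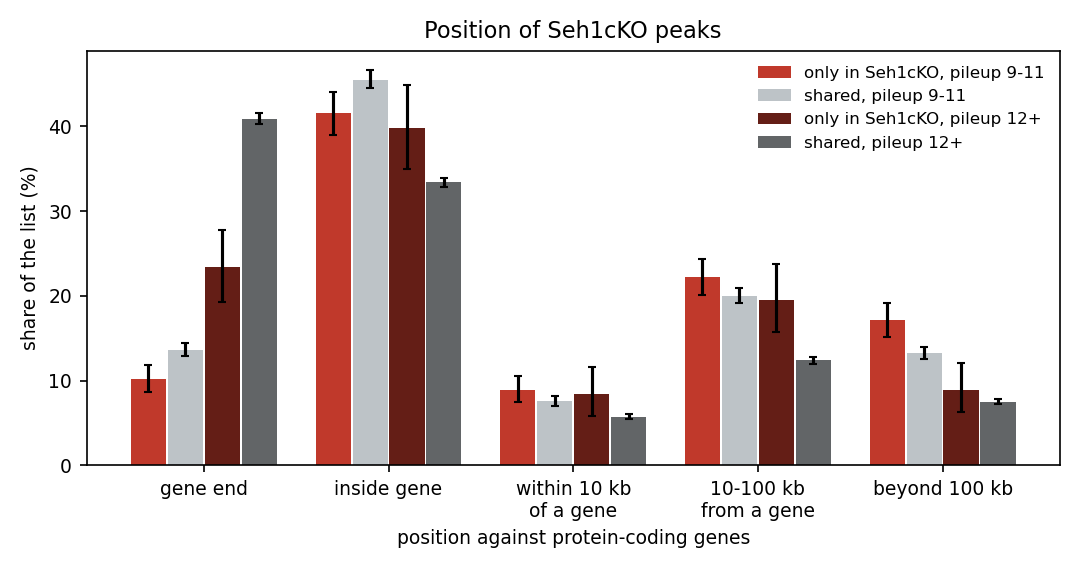
Share in % (vertical, with exact 95% intervals) of Seh1cKO peaks in 5 positions against protein-coding genes (horizontal), for members and shared peaks of 9 to 11 fragments and of 12 or more. At gene ends the 4 shares are 10.2%, 13.6%, 23.4% and 40.9%. The class of 12 or more is not of like pileup: 8251 of 25424 shared peaks have 30 fragments or more, against 8 of 394 members.

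Genes with a member in the gene or within 10000 bp of it numbered 1299, 6.29% of 20661 autosomal protein-coding genes, and 1187 of them had 1 member. Among Seh1cKO peaks in or near such genes 4.3% of 27098 were members. After Gm4724, with 5 members among 5 peaks, came long genes with many peaks. Celf4, an RNA-binding protein gene of neurons, had 5 members of 19 peaks, with 9 to 13 fragments each. Camta1, a transcription activator gene, had 4 of 26, Elmo1, a regulator of Rac, 4 of 19, and Cacna1c, an L-type calcium channel gene, 4 of 16. Kirrel3, Speg and Auts2 had 3 each, of 14, 6 and 19 peaks. Beyond the zinc finger stretch, members of this group had 9 to 14 fragments. The member at a gene end outside the stretch with the highest −log10 q, 10.3, was at Fam205a3 (chr4:42294361-42294671), 311 bp wide with 16 fragments. The Atxn7l1 promoter shown above lay wholly inside a member of 396 bp with 16 fragments and a −log10 q of 10.7, 6110 bp from a control peak, and it was named for its sequence after its values were seen.

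Gene lists of the lineage are read against the 4.3% of Seh1cKO peaks in or near genes that were members. That share pools peaks of all heights, and no list was compared at like pileup. The intervals of all the lists in this paragraph include that share. At progenitor markers 1 of 76 Seh1cKO peaks (1.32%, 0.0333 to 7.11) was a member, near Cacng4 (146 bp, 9 fragments), and at myelin and mature oligodendrocyte genes 0 of 70, which allows up to 5.13%. At transcription factors of the lineage 8 of 101 peaks (7.92%, 3.48 to 15.0) were members, at 6 of 20 genes. These included Nfia (232 bp, 11 fragments), Nfib (177 bp, 19), Etv4 (230 bp, 11), Zeb2 (210 bp, 9) and the Id2 member described above. At SWI/SNF remodeller genes it was 1 of 85, within Arid1b (9 fragments). At nuclear pore genes it was 2 of 45, within Nup210 (215 bp, 10 fragments) and Nup93 (292 bp, 9). At GATOR and mTORC1 genes it was 1 of 51. That one covered 227 bases of the Castor1 promoter (chr11:4218015-4218241), with 13 fragments, a fold of 5.36 and a control peak 1190 bp away. Castor1 encodes an arginine sensor that binds GATOR2. At cell cycle genes 3 of 74 were members, a pair at Ccnd2, which encodes cyclin D2, with 20 and 18 fragments in 100 and 144 bp, and 1 within Cdk6.

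Markers of other cell types were counted in the same way. At neuron markers 12 of 92 peaks (13.0%, 6.93 to 21.7) were members, at 8 of 25 genes, and 5 of the 12 were at Celf4. Others lay within Rbfox1 (187 bp, 10 fragments), Slc32a1 (244 bp, 10), Syt1 (283 bp, 9) and Stmn2 (146 bp, 9) and at Nefm (189 bp, 12). The nearest control peak was 74 bp away at Nefm, 611 at Syt1, 1592 at Slc32a1, 1984 at Stmn2 and 5975 at Rbfox1. For the 5 members at Celf4 it was 24 to 4164 bp away. The interval of the neuron list lies above the 4.3% of all peaks near genes, on a list of which 1 gene gives 5 members. It treats peaks as independent, which those of 1 gene need not be. The 4.3% pools all heights, while the share of Seh1cKO peaks that were members was 20.4% at 9 fragments and 1.56% at 15 to 19. The neuron members named here had 9 to 13 fragments. A difference at like pileup was not tested. At astrocyte markers 1 of 46 was a member, within Aldh1l1. At endothelial and mural markers 3 of 24 were, at Tagln, Dcn and Pdgfrb with 9 to 11 fragments. Their nearest control peaks were 768, 19692 and 95 bp away in turn. Microglia and macrophage markers had 0 members of 12 peaks and fibroblast and non-neural fate genes 0 of 16, which allow up to 26.5% and 20.6%. Seh1cKO peaks of any kind numbered 76 over 15 progenitor marker genes and 70 over 27 myelin and oligodendrocyte genes. They numbered 92 over 25 neuron, 46 over 15 astrocyte, 24 over 19 endothelial and mural and 12 over 16 microglia and macrophage genes. These counts were not adjusted for gene length and do not name the cell type. At immediate early and stress genes 1 of 59 peaks was a member, within Gadd45a (109 bp, 15 fragments), outside the rule for named members and looked up after its values were seen. No list had more than 12 members. Whether cells of another type contribute to them was not tested.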

How the data were processed

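The tools named in the submitters' processing notes are Bowtie2, SAMtools and MACS2, with mm10. Per the file headers the authors ran MACS 2.1.2_dev on the paired-end fragments of 1 library at a time, kept duplicates and used no control. The q cutoff was 0.05, gaps of up to 50 bp were joined, peaks had at least 100 bp and the background window was 10000 bp. The sources used here do not say how reads matching several places were handled. The deposited tables hold the pileup signal at the summit in fragments, the −log10 of p and q, whose column names were damaged, and the fold ratio to background. The −log10 p was recomputed from pileup and fold to within 0.01 for at least 99.9% of peaks. These are the authors' values, used to describe, rank and filter within a list.

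Local background was taken as (pileup + 1) / fold − 1. Gene positions and promoter windows came from RefSeq, GRCm38.p6, the build of mm10, without strand for gene ends. Overlaps were computed with Python 3.11.15, numpy 2.4.6 and pandas 2.3.3, intervals with scipy 1.17.1 and identities with edlib 1.3.9.post1, and the overlap code was tested on simulated data. The members and gene lists were chosen with earlier results of these data known. Members were named by rule: the 12 highest by −log10 q, the 8 highest at gene ends, those of the 8 genes with most members, up to 25 at listed genes, the 4 widest and 4 narrowest, and 3 on each side of the threshold. Members with at least 20 fragments, the chromosome 2 stretch and the duplicated promoters were added after the values were seen. Alternatives varied the minimum, the overlap rule, the windows and the chromosomes.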

Additional observations from a re-analysis of the deposited data

Results flagged for a closer look

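Peaks on the sex chromosomes were outside the rule. On the Y chromosome 17 of 32 Seh1cKO peaks at the same minimum (53.1%, interval 34.7 to 70.9) overlapped no control peak, against 5 of 25 in progenitors (20.0%) and 4 of 23 in control cells at day 1 (17.4%). This is a signal in data that the comparisons above did not use, with a share above that in both control libraries. The control intervals, 6.83 to 40.7 in progenitors and 4.95 to 38.8 at day 1, overlap the Seh1cKO interval, and the peaks are few. On the X chromosome the count was 22 of 790 (2.78%), against 62 of 833 and 241 of 1178. The sex of the pups is not among the sample details used here, so sex cannot be told apart from genotype or library. The difference between libraries on the Y chromosome was not tested.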

How the results depend on the processing

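No paired analysis was possible because each group has 1 library, and for the same reason no library could be left out. The number of members followed the rule closely: it was 4752 with a minimum of 0.6 FPM, 176 with 1.2, 1217 when a control peak within 500 bp counted as overlap, 3254 when a control peak had to cover at least 50% of the peak, and 340 with a −log10 q of at least 5. Under these 5 rules in turn the median width was 160, 202, 196, 219 and 258 bp, and the share under 200 bp was 71.1%, 48.9%, 51.4%, 41.7% and 30.3%. In the same order the share with a control peak within 1000 bp was 36.6%, 57.4%, 11.1%, 66.7% and 30.6%. The share at gene ends was 8.31% with a minimum of 0.6, 29.0% with 1.2, 6.41% with the 500 bp rule and 9.12% with the q rule. The median fold was 4.06 with a minimum of 0.6, 4.26 with 1.2 and 5.42 with the q rule. Summits were centred in 31.3% with 0.6, 39.8% with 1.2 and 49.4% with the q rule. Gene-end windows of 500 and 2000 bp gave 8.21% and 16.9%, width limits of 150 and 250 bp gave 30.3% and 74.7%, and centring within 5% of the width gave 18.0%. Including X and Y changed none of the 7 results beyond its interval, or the count by more than 1.5 times. The stricter rules leave fewer peaks by construction, and the cause of the other shifts was not tested. The share of duplicated promoters among members at promoters was 16.2% with runs of 21 bases, 12.1% with 51 bases and 11.1% when 90% of the promoter had to be duplicated, settings chosen after seeing the data. Depth limits the comparison: accessible sites under the lowest pileup called are not in the lists.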
